A study of Ovis aries with 8 samples.

Results

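The genes described here are 50 genes of DNA replication and mitosis, picked by name from the 28475 gene symbols of an expression table of sheep embryonic stem cells. All 50 symbols were in the table, and all 50 matched a symbol in the RefSeq annotation of the sheep genome. Abundance was given as TPM, a transcript abundance that is corrected for transcript length and scaled so that every library sums to the same total. All 50 genes passed a filter of at least 1 TPM in at least 2 libraries, which 14779 genes in all passed.

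RNA was enriched for polyadenylated transcripts from 8 libraries in 4 groups of 2. The labelled tissue of all 4 groups is the inner cell mass of blastocysts. The naive-like cells, whose genotype label is "primed to naive converted", were grown on MEFs (mouse embryonic fibroblasts, a feeder layer) or feeder-free, both at passage 12. Their medium held human LIF at 20 ng/mL, Activin A at 20 ng/mL, PD0325901 (a MEK inhibitor) at 1 µM, XAV-939 (a tankyrase inhibitor) at 2 µM, Go6983 (a protein kinase C inhibitor) at 2 µM, CGP77675 (a Src inhibitor) at 1.2 µM and ascorbic acid at 50 µg/mL. Primed cells of line B and of line A, both wild type (WT), were grown feeder-free at passage 10 in NBFR medium. NBFR held Activin A at 20 ng/mL, bFGF at 20 ng/mL, endo-IWR-1 (a tankyrase inhibitor) at 3 µM and BSA at 1%, with N2 and B27 supplements. Both media were built on DMEM/F-12 and Neurobasal. All cultures were kept at 37 °C in 5% CO2. The line that gave rise to the naive-like cells was not given, and medium and passage go with state, so their parts in any difference of state cannot be told apart. The libraries were not said to come from separate cultures, so the p-values below measure only the spread between these libraries.

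A cell copies its DNA once per division. In human and yeast cells, CDC6 and CDT1 load the ring of MCM2 to MCM7 onto origins in G1, CDC45 and the GINS complex turn that ring into the working helicase, and polymerases, the clamp PCNA and nick-sealing enzymes then make the new strands. Mitosis follows when cyclin-bound CDK1 is switched on by CDC25 phosphatases, and the aurora kinases, PLK1, the kinetochore and the spindle checkpoint guide chromosome separation. Many replication genes are known targets of E2F factors in human cells and many mitosis genes of FOXM1, and embryonic stem cells of mouse and human are known for rapid division with a short G1.

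The 50 genes were expressed in every library, with means over the 8 libraries between 7.04 TPM (E2F2) and 533 TPM (PCNA). PCNA, TOP2A (the topoisomerase that untangles sister DNA), MCM7 and RRM2 had the highest means. Together the 50 genes made up 0.630% and 0.615% of all TPM in naive-like cells on MEFs and 0.613% and 0.588% in feeder-free naive-like cells, against 0.595% and 0.579% in line B and 0.546% and 0.548% in line A. The naive-like and primed shares overlapped, since the lower feeder-free library lay under the higher line B library. All 7 of 7 pluripotent cell markers were above the filter. Within a group, libraries correlated at 0.982 to 0.985 across genes, and 13294 to 13664 genes per library reached 1 TPM. The table keeps no read counts, so the depth behind each value is unknown, and the labels give an approximate number of reads only.

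The first comparison asked how the 4 naive-like libraries differ from the 4 primed libraries. Most replication genes were higher in naive-like cells, most mitosis genes did not pass the test, and those that did were mainly lower. All of these changes were under 2-fold. Of the 50 genes, 19 were higher, 8 were lower and 23 did not pass an adjusted p of 0.05, so 54% passed, against a background of 50.7% of all genes tested. The background was 28.6% higher and 22.1% lower. The share of the 50 genes that passed was near that background, and 53.0% of the 9439 genes in the same range of TPM passed. The median change was 0.047 on the log2(TPM + 1) scale for the 50 genes and 0.050 for all genes tested. By role, of the 23 replication genes 17 were higher and 1 was lower, with a median change of 0.24, and of the 23 mitosis genes 1 was higher and 6 were lower, with a median change of -0.034. The mitosis set held the cyclins, CDKs and mitotic entry kinases, CDK2 and CDC25A among them, and the segregation genes. In all 78.3% of the replication genes and 30.4% of the mitosis genes passed, against 50.7% of all genes tested. The share of mitosis genes that were lower was near the background of 22.1%. The role groups were drawn up with earlier results of these data known, and no test was made of the difference between them.

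**Figure D1:**
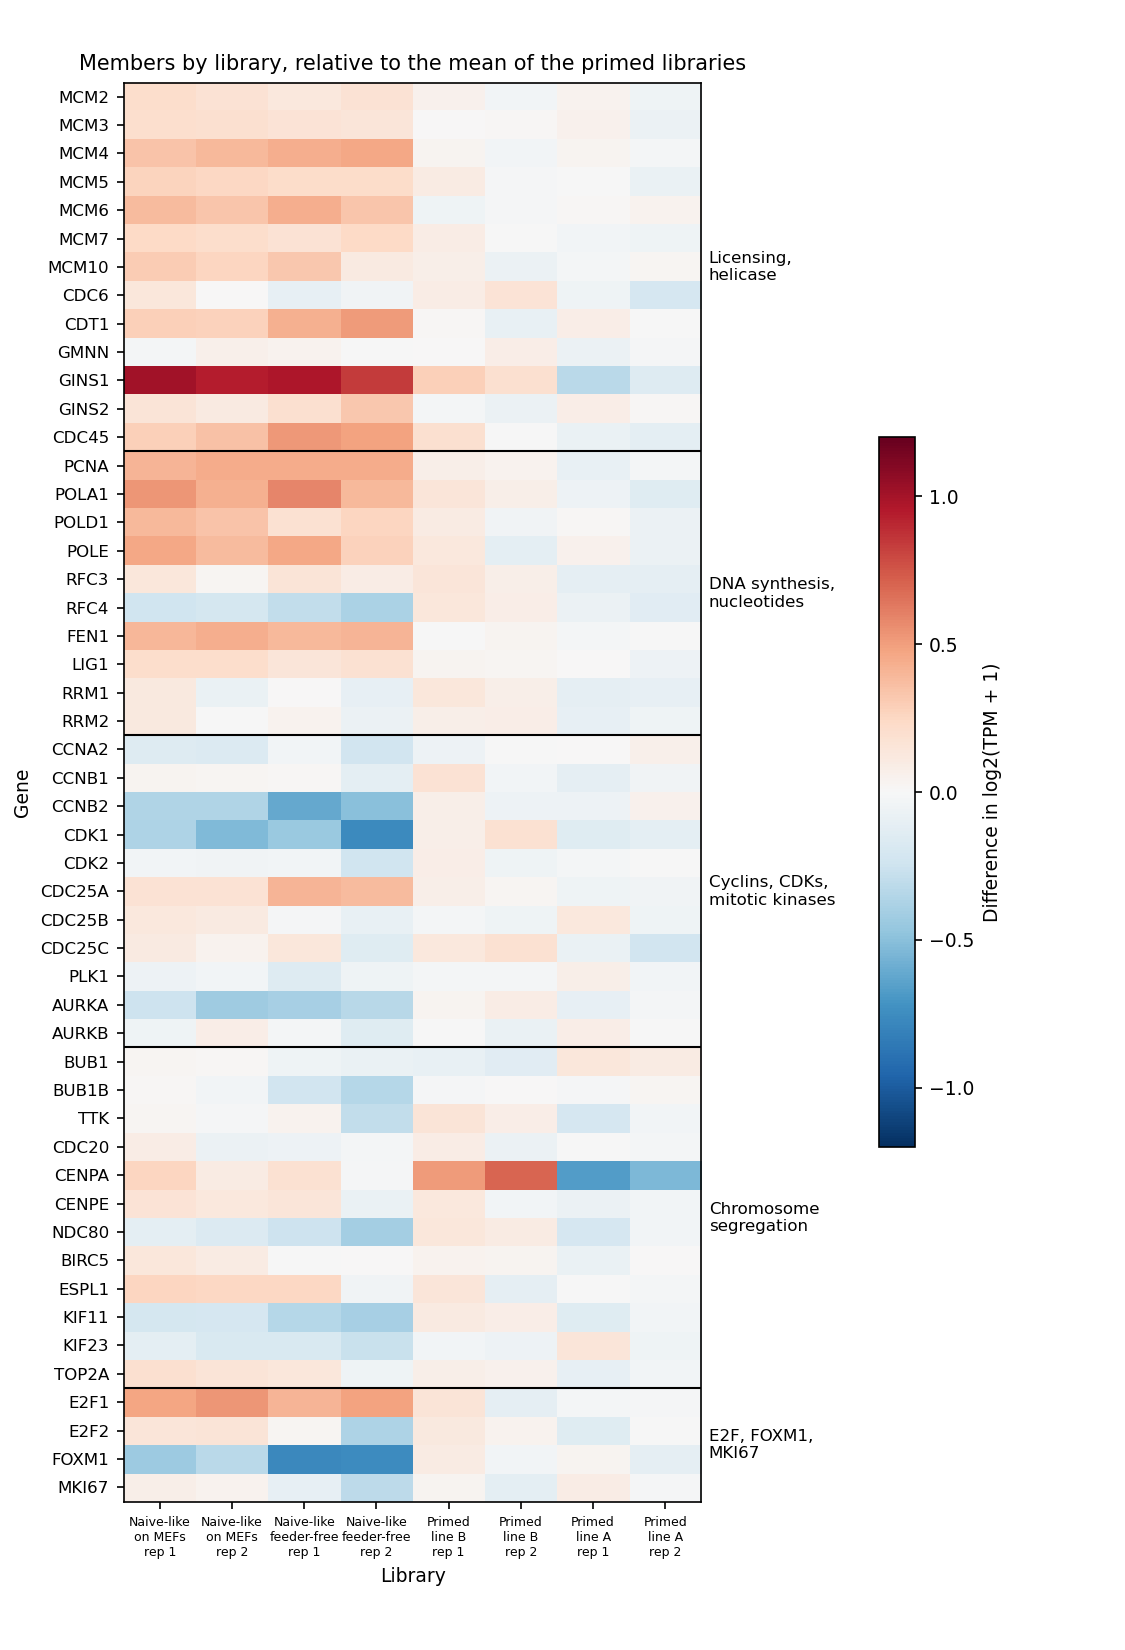
Heat map of the 50 genes (rows, grouped by role) in the 8 libraries (columns, naive-like on MEFs, naive-like feeder-free, primed line B and primed line A), coloured by the difference in log2(TPM + 1) from the mean of the 4 primed libraries. Most rows of the licensing and synthesis groups are above the primed mean in all 4 naive-like libraries, led by GINS1, while CDK1, CCNB2, AURKA and FOXM1 are below it, and CENPA splits the 2 primed lines.

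Among licensing and helicase genes, 11 of 13 were higher in naive-like cells, 0 were lower, and 2 did not pass the test. GINS1, a subunit of the GINS complex that activates the helicase, had the largest change of the 50 genes. It stood at 147 and 141 TPM on MEFs and 143 and 131 TPM feeder-free, against 88.4 and 82.8 TPM in line B and 57.8 and 65.2 TPM in line A. Every naive-like library was above every primed library, and the primed lines themselves were apart. GINS1 averaged 140.2 ± 6.84 TPM in naive-like cells and 73.6 ± 14.4 TPM in primed cells (SD, n = 4 each), a change of 0.94 ± 0.12 (SE) on the log2 scale with an adjusted p of 0.000242 from limma. Against line A alone the change was 1.18 (adjusted p = 4.22e-05 by limma), which is over 2-fold. Against line B alone it was 0.70 (adjusted p = 0.000202). Whether fewer cells of a type or less RNA per cell underlies a difference cannot be told apart in bulk samples such as these, here and in all comparisons below.

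GINS2, the other GINS subunit among the 50, had a smaller change. It stood at 47.7 and 46.1 TPM on MEFs and 48.9 and 53.7 TPM feeder-free, against 42.0 and 40.7 TPM in line B and 45.1 and 43.2 TPM in line A. The groups did not overlap, but the change was 0.20 ± 0.062 (SE, adjusted p = 0.0262 by limma), and it did not pass without either feeder-free library or either line B library (adjusted p = 0.0540 to 0.0674), nor with median-ratio scaling or quantile normalization. The GINS2 call was also lost with line A alone as the primed group, with group as a random block and in a fit of the 4 group means. The ratio of GINS1 to GINS2 TPM within a library ran from 2.43 to 3.07 in naive-like libraries and from 1.28 to 2.11 in primed libraries. Both remaining subunits, named here after their values were seen, were higher as well: GINS3 by 0.53 ± 0.074 (SE, adjusted p = 0.000311 by limma) and GINS4 by 0.67 ± 0.088 (SE, adjusted p = 0.000236).

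CDC45, the partner of GINS in the active helicase, stood at 62.5 and 65.4 TPM on MEFs and 73.7 and 71.5 TPM feeder-free, against 58.4 and 50.9 TPM in line B and 48.2 and 47.0 TPM in line A. All naive-like libraries were above all primed libraries, with a change of 0.41 ± 0.082 (SE, adjusted p = 0.00257 by limma). CDT1, which loads the MCM ring, stood at 79.2 and 78.7 TPM on MEFs and 87.4 and 93.0 TPM feeder-free, against 65.3 and 60.8 TPM in line B and 68.7 and 64.6 TPM in line A. It was higher by 0.37 ± 0.068 on the log2 scale (SE, adjusted p = 0.00152 by limma), again without overlap. Its inhibitor geminin, GMNN, stood at 159 and 169 TPM on MEFs and 167 and 161 TPM feeder-free, against 162 and 171 TPM in line B and 154 and 161 TPM in line A, and the groups overlapped (change 0.018 ± 0.047, SE, adjusted p = 0.778). The ratio of CDT1 to GMNN TPM was 0.465 to 0.578 in naive-like libraries and 0.356 to 0.447 in primed libraries. CDC6, the other loader, had a change of 9.5e-05 ± 0.091 (SE, adjusted p = 0.999), with 28.8 and 26.2 TPM on MEFs and 24.3 and 25.4 TPM feeder-free, against 27.9 and 29.3 TPM in line B and 25.2 and 22.5 TPM in line A.

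All 6 subunits of the MCM2 to MCM7 ring were higher in naive-like cells. MCM4 stood at 179 and 185 TPM on MEFs and 192 and 195 TPM feeder-free, against 145 and 138 TPM in line B and 144 and 139 TPM in line A. MCM4 changed by 0.41 ± 0.045 (SE, adjusted p = 7.87e-05 by limma) and MCM6 by 0.37 ± 0.044 (SE, adjusted p = 0.000122), the largest of the 6, whereas MCM2 changed by 0.17 ± 0.044 (SE, adjusted p = 0.0104) and MCM3 by 0.18 ± 0.044 (SE, adjusted p = 0.00835), the smallest. The groups did not overlap for any of the 6. The call was lost for MCM2 with median-ratio scaling or quantile normalization, and for MCM3 with quantile normalization. In a fit of the 4 group means alone, MCM2, MCM3, MCM5 and MCM7 did not pass. The 6 subunits summed to 1418 and 1398 TPM on MEFs and 1398 and 1408 TPM feeder-free, against 1215 and 1163 TPM in line B and 1179 and 1142 TPM in line A. MCM10, which helps to start the assembled helicase, stood at 47.3 and 45.8 TPM on MEFs and 48.1 and 41.1 TPM feeder-free, against 40.1 and 36.3 TPM in line B and 37.5 and 38.9 TPM in line A (change 0.25 ± 0.065, SE, adjusted p = 0.0108).

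Of the 10 genes of DNA synthesis and nucleotide supply, 6 were higher, 1 was lower and 3 did not pass the test. PCNA, the sliding clamp that holds polymerases on DNA, stood at 601 and 615 TPM on MEFs and 618 and 615 TPM feeder-free, against 475 and 465 TPM in line B and 426 and 446 TPM in line A. The naive-like libraries lay close together and all above the primed ones. PCNA averaged 612 ± 7.54 TPM in naive-like cells and 453 ± 21.5 TPM in primed cells (SD, n = 4 each), and the change was 0.44 ± 0.044 (SE, adjusted p = 4.62e-05 by limma). FEN1, the nuclease that trims the flaps of Okazaki fragments, stood at 81.5 and 83.8 TPM on MEFs and 81.3 and 82.3 TPM feeder-free, against 61.7 and 63.0 TPM in line B and 60.8 and 61.3 TPM in line A. Here too the states were apart, by 0.41 ± 0.042 on the log2 scale (SE, adjusted p = 4.94e-05 by limma). LIG1, the ligase that joins those fragments, was higher by 0.19 ± 0.043 (SE, adjusted p = 0.00565).

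The catalytic subunits of the 3 replicative polymerases were all higher in naive-like cells. POLA1, which extends the primer, stood at 37.1 and 34.5 TPM on MEFs and 38.7 and 33.7 TPM feeder-free, against 28.1 and 26.8 TPM in line B and 24.2 and 22.8 TPM in line A. Its change was 0.48 ± 0.080 (SE, adjusted p = 0.000906 by limma), against 0.40 ± 0.077 for POLE (the leading strand, SE, adjusted p = 0.00214) and 0.29 ± 0.062 for POLD1 (the lagging strand, SE, adjusted p = 0.00369). For each of these genes the lowest naive-like library was above the highest primed library.

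The clamp loader and nucleotide supply genes held the 4 synthesis genes that were not higher. RFC4, a subunit of the complex that opens PCNA around DNA, stood at 109 and 111 TPM on MEFs and 104 and 98.7 TPM feeder-free, against 141 and 135 TPM in line B and 122 and 116 TPM in line A. RFC4 was the only replication gene of the 50 that was lower in naive-like cells, by a change of -0.28 ± 0.070 (SE, adjusted p = 0.00849 by limma), and it did not pass with line A alone as the primed group. RFC3, of the same complex, had a change of 0.10 ± 0.069 (SE, adjusted p = 0.250) with overlapping groups. The subunits outside the 50, named after their values were seen, did not pass either, with changes of 0.062 for RFC1, 0.066 for RFC2 and 0.048 for RFC5. RRM1 and RRM2, the subunits of ribonucleotide reductase, which makes deoxynucleotides, had changes of -0.015 ± 0.073 (SE, adjusted p = 0.880) and 0.020 ± 0.058 (SE, adjusted p = 0.796). RRM2 was at 395 and 364 TPM on MEFs and 376 and 348 TPM feeder-free, against 383 and 386 TPM in line B and 341 and 354 TPM in line A, so its groups overlapped.

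**Figure D2:**
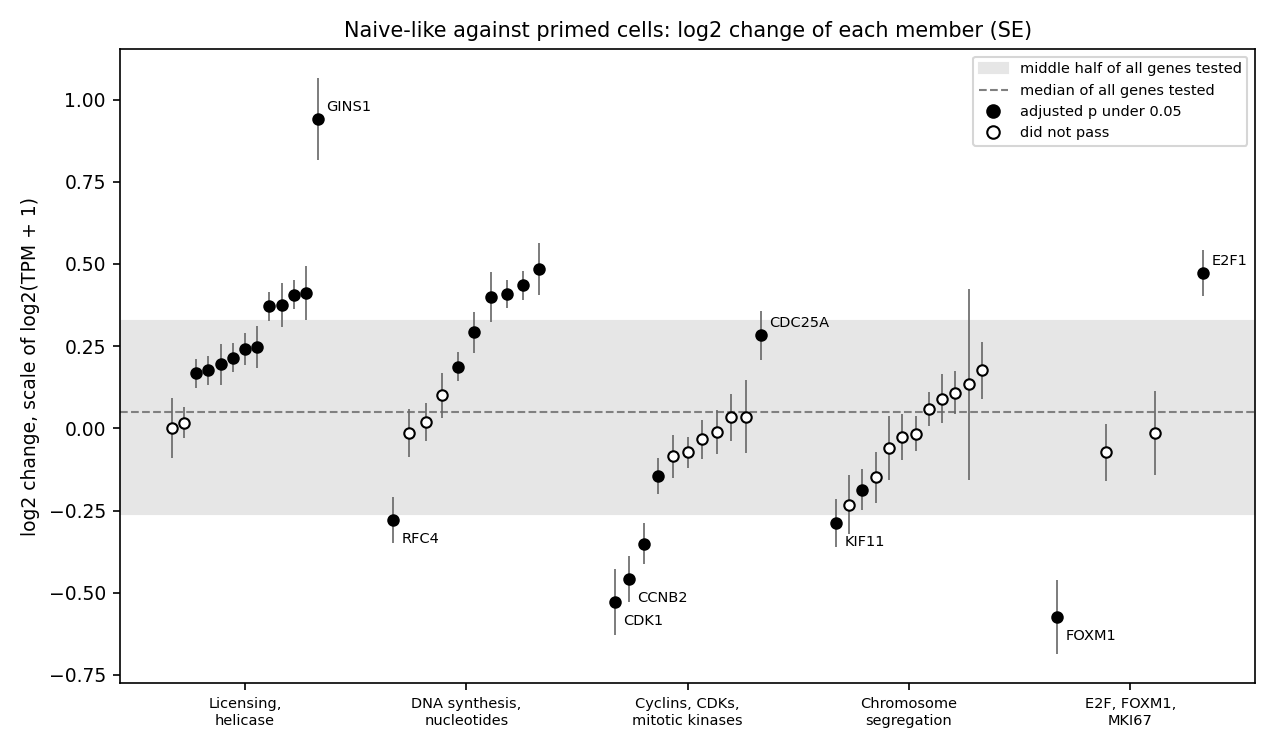
Log2 change of each of the 50 genes, naive-like minus primed, by role (points, with bars of 1 SE from limma), beside the median and the interquartile range of all genes tested. Points of licensing and synthesis genes lie mostly above 0, up to 0.94 for GINS1, and those of cyclins, kinases and segregation genes run from -0.53 for CDK1 to 0.28 for CDC25A, which is the 1 filled point above 0 in those groups.

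Of the 11 cyclins, CDKs and mitotic entry kinases, 1 was higher, 4 were lower and 6 did not pass the test. CDK1, the kinase that drives entry into mitosis, stood at 154 and 138 TPM on MEFs and 147 and 117 TPM feeder-free, against 210.1 and 227 TPM in line B and 181 and 184 TPM in line A. Every naive-like library was below every primed library. CDK1 averaged 139 ± 15.9 TPM in naive-like cells and 200.4 ± 21.9 TPM in primed cells (SD, n = 4 each), a change of -0.53 ± 0.10 (SE, adjusted p = 0.00197 by limma). CDK2, the kinase partner of cyclins E and A, had 37.7 and 37.5 TPM on MEFs and 37.7 and 32.6 TPM feeder-free, against 40.7 and 37.2 TPM in line B and 37.9 and 38.5 TPM in line A, with overlap (change -0.085 ± 0.065, SE, adjusted p = 0.301).

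Of the B-type cyclins, which bind CDK1, CCNB2 passed the test and CCNB1 did not. CCNB2 stood at 65.0 and 65.0 TPM on MEFs and 54.1 and 58.7 TPM feeder-free, against 87.6 and 80.0 TPM in line B and 80.0 and 86.9 TPM in line A. It was lower in all naive-like libraries, with a change of -0.46 ± 0.071 (SE, adjusted p = 0.000617 by limma). CCNB1 stood at 140.4 and 139.8 TPM on MEFs and 139 and 127 TPM feeder-free, against 155 and 135 TPM in line B and 128 and 134 TPM in line A, and its groups overlapped (change -0.011 ± 0.068, SE, adjusted p = 0.909). The ratio of CCNB1 to CCNB2 TPM within a library was 2.15 to 2.56 in naive-like cells and 1.54 to 1.77 in primed cells. CCNA2, the cyclin of S and G2 phases, passed narrowly at -0.15 ± 0.054 (SE, adjusted p = 0.0483), its groups overlapped, and it passed only without feeder-free replicate 1 or line B replicate 1 among the 8 fits that left out 1 library (adjusted p = 0.0805 to 0.119 in the others).

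AURKA, the aurora kinase of centrosomes and spindle poles, stood at 60.3 and 53.1 TPM on MEFs and 54.4 and 56.8 TPM feeder-free, against 73.6 and 76.2 TPM in line B and 66.9 and 70.8 TPM in line A. All naive-like libraries were lower, with a change of -0.35 ± 0.061 (SE, adjusted p = 0.00123 by limma). AURKB, the aurora kinase of the chromosomal passenger complex, had a change of -0.034 ± 0.059 (SE, adjusted p = 0.662). PLK1, a kinase of mitotic entry and exit, had a change of -0.074 ± 0.047 (SE, adjusted p = 0.223), with all 4 naive-like libraries just under the primed ones. Among the CDC25 phosphatases, which activate CDKs, CDC25A was the 1 mitosis gene that was higher in naive-like cells. CDC25A stood at 28.5 and 28.6 TPM on MEFs and 33.7 and 33.1 TPM feeder-free, against 26.4 and 25.7 TPM in line B and 24.3 and 24.5 TPM in line A (change 0.28 ± 0.074, SE, adjusted p = 0.0107 by limma), and it did not pass against line B alone. CDC25A is known in human cells to act at the start of S phase as well as at mitosis. CDC25B had a change of 0.033 ± 0.071 (SE) and CDC25C of 0.035 ± 0.11 (SE), and neither passed.

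Of the 12 chromosome segregation genes, 0 were higher, 2 were lower and 10 did not pass the test at the adjusted threshold in limma, with 3 at an unadjusted p under 0.05. Among all 14779 genes tested, 8420 were under that unadjusted limit. KIF11, the kinesin that pushes spindle poles apart, stood at 63.6 and 64.2 TPM on MEFs and 58.0 and 55.9 TPM feeder-free, against 79.5 and 78.2 TPM in line B and 66.5 and 72.0 TPM in line A. The naive-like libraries were all lower, with a change of -0.29 ± 0.074 (SE, adjusted p = 0.00967 by limma), which did not pass against line A alone. KIF23, a kinesin of the spindle midzone, had a change of -0.19 ± 0.063 (SE, adjusted p = 0.0345), which did not pass without MEF replicate 2, either feeder-free library or line A replicate 1 (adjusted p = 0.0655 to 0.0772). The kinetochore protein NDC80, which grips microtubules, had a change of -0.23 ± 0.090 (SE, adjusted p = 0.0550).

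The spindle checkpoint genes BUB1, BUB1B and TTK had changes of -0.027, -0.15 and -0.060, and CDC20, which activates the ubiquitin ligase that ends mitosis, of -0.016. BIRC5 (survivin, of the passenger complex), CENPE (a kinetochore kinesin), TOP2A and ESPL1 (separase, which cuts the cohesin ring) had changes of 0.059, 0.090, 0.11 and 0.18. None of these 8 genes passed in limma. CENPA, the histone variant that marks centromeres, had a change of 0.13 ± 0.29 (SE, adjusted p = 0.726), and its large SE came with a wide gap between the primed lines that is described with the lines.

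Of the transcription factors, E2F1 was higher and FOXM1 was lower in naive-like cells. E2F1 stood at 30.0 and 31.2 TPM on MEFs and 28.5 and 30.1 TPM feeder-free, against 23.8 and 19.7 TPM in line B and 20.9 and 21.0 TPM in line A. E2F1 was higher without overlap, by 0.47 ± 0.070 (SE, adjusted p = 0.000458 by limma). FOXM1 stood at 13.4 and 14.6 TPM on MEFs and 10.5 and 10.6 TPM feeder-free, against 19.9 and 18.2 TPM in line B and 19.1 and 17.2 TPM in line A. FOXM1 was lower without overlap, by a change of -0.57 ± 0.11 (SE, adjusted p = 0.00240 by limma), the largest fall of the 50 genes. E2F2 had a change of -0.014 ± 0.13 (SE, adjusted p = 0.941). MKI67, the proliferation marker Ki-67, stood at 144 and 141 TPM on MEFs and 128 and 109.9 TPM feeder-free, against 140.1 and 126 TPM in line B and 146 and 136 TPM in line A, and its groups overlapped (change -0.073 ± 0.087, SE, adjusted p = 0.510).

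**Figure D3:**
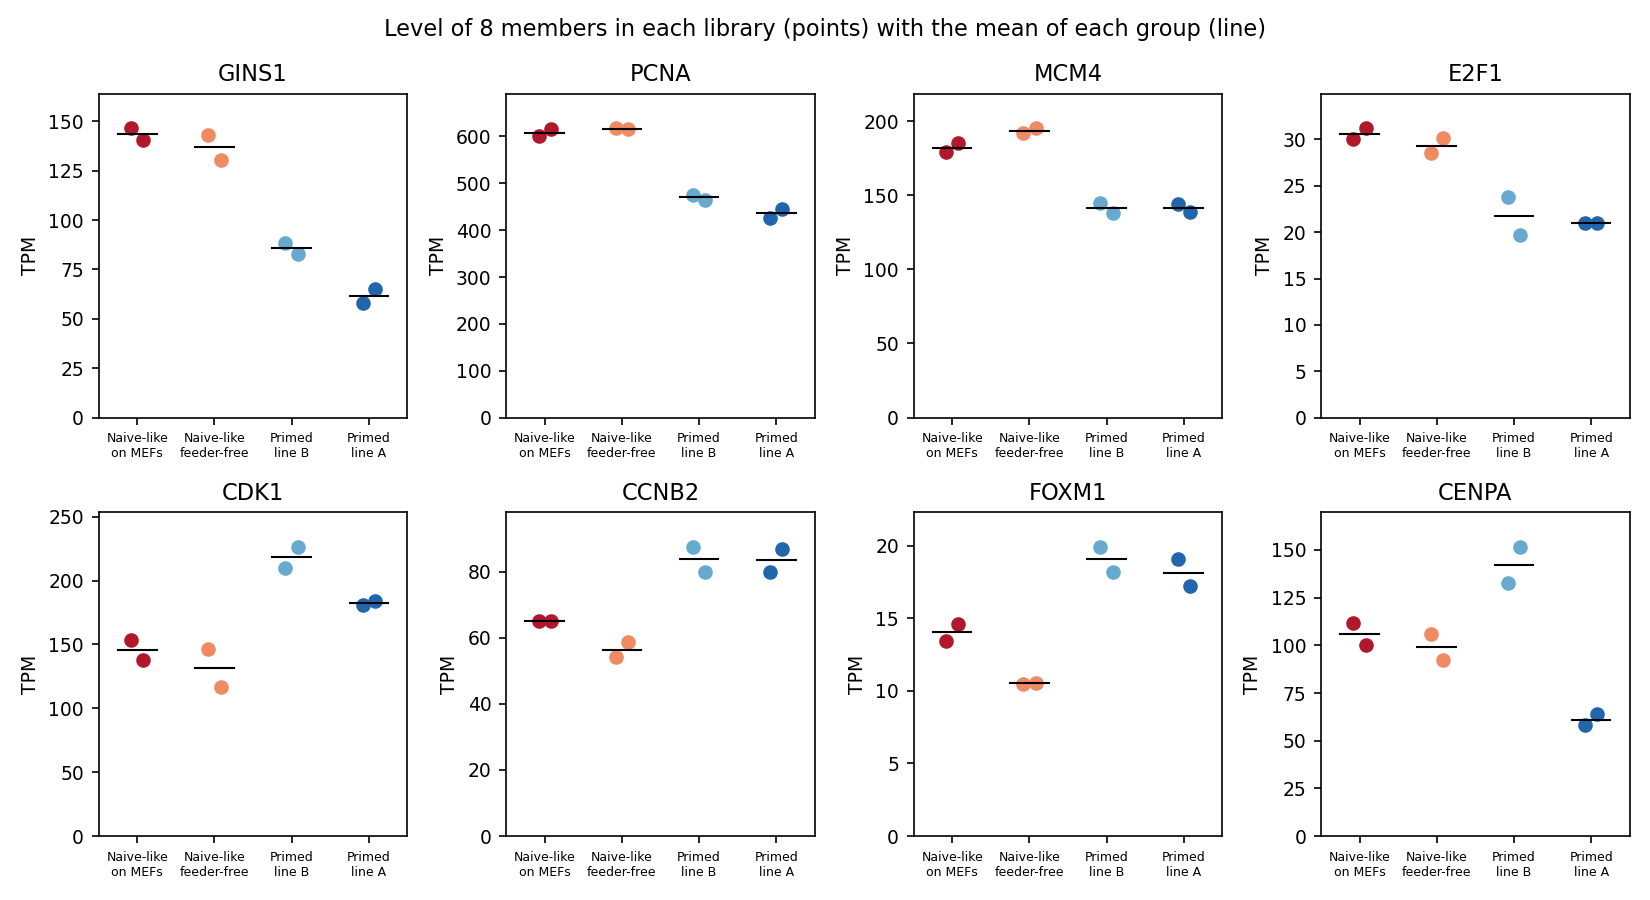
TPM in each library for GINS1, PCNA, MCM4, E2F1, CDK1, CCNB2, FOXM1 and CENPA in the 4 groups (points are libraries and lines are group means). The first 4 genes are higher and the next 3 lower in all naive-like libraries, while CENPA in naive-like cells lies between line B and line A.

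Ratios within a library do not depend on how libraries are scaled. The ones given here divide genes already seen to be higher by genes already seen to be lower, or role groups drawn up with earlier results known, so they restate the changes above and are no further evidence of them. The summed TPM of the 23 replication genes divided by that of the 23 mitosis genes was 1.61 and 1.62 on MEFs and 1.67 and 1.78 feeder-free, against 1.35 and 1.33 in line B and 1.38 and 1.34 in line A. The naive-like and primed ranges were apart. PCNA was at 3.91 and 4.47 times the TPM of CDK1 on MEFs and 4.22 and 5.26 times feeder-free, against 2.26 and 2.05 times in line B and 2.36 and 2.42 times in line A. E2F1 was at 2.23 and 2.14 times the TPM of FOXM1 on MEFs and 2.72 and 2.85 times feeder-free, against 1.19 and 1.08 times in line B and 1.10 and 1.22 times in line A.

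**Figure D4:**
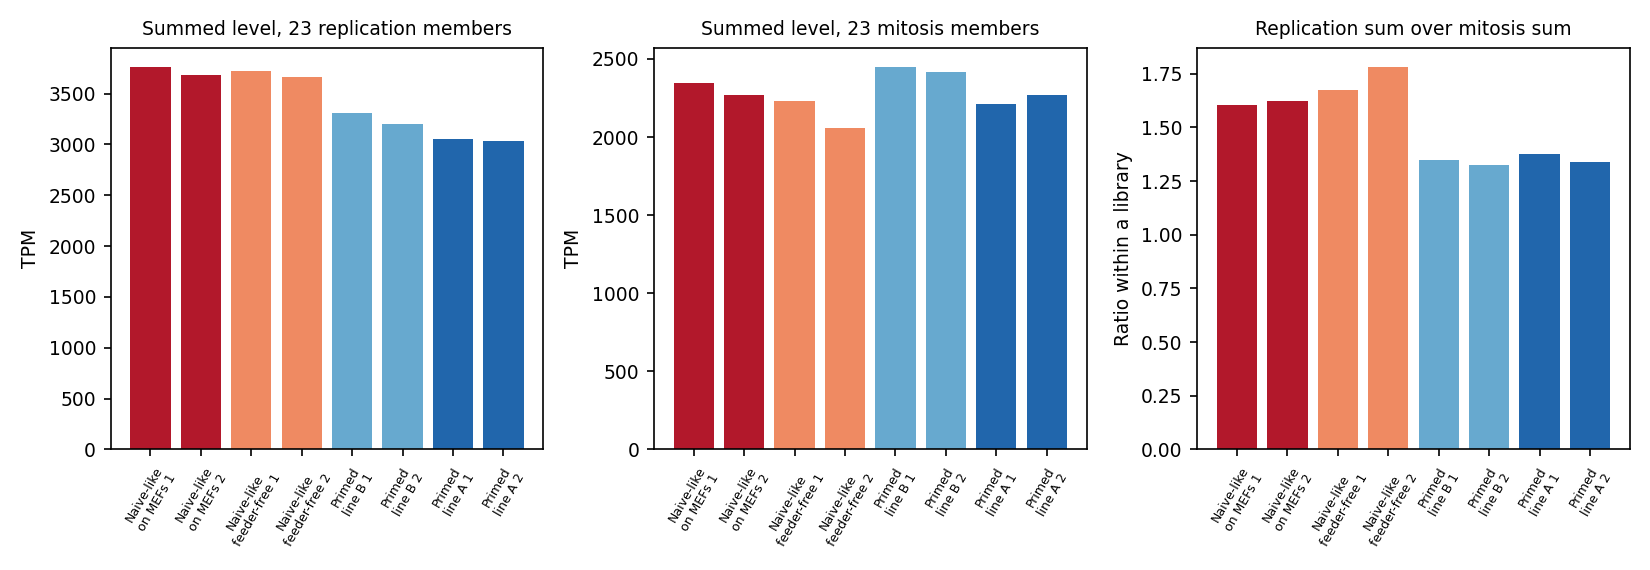
Bars, from 0, of the summed TPM of the 23 replication genes, of the 23 mitosis genes, and of their ratio in each of the 8 libraries. The replication sum is 3664 to 3762 TPM in naive-like libraries and 3035 to 3306 TPM in primed libraries, the mitosis sums overlap at 2056 to 2343 TPM in naive-like libraries and 2214 to 2449 TPM in primed libraries, and the ratio is higher in every naive-like library.

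In 27 of the 50 genes the libraries of the 2 states did not overlap (19 higher, 8 lower), against a background of 47.7% of all genes tested. Scaling moved the balance of the calls. Median-ratio scaling gave 17 of the 50 higher and 11 lower, with 9 mitosis genes lower. Quantile normalization gave 16 higher and 10 lower, with 8 mitosis genes lower. The balance over all genes tested moved too. It was 4233 higher and 3260 lower in the main fit. With median-ratio scaling it was 3692 and 3860, and with quantile normalization 4049 and 3626. A fit of the 4 group means alone, which allows for libraries of a group being alike, called 9 of the 50 higher and 3 lower. So 12 of the 50 passed in that fit, against a background of 27.2% of all genes tested. Calls lost there were those of MCM2, MCM3, MCM5, MCM7, MCM10, GINS2, CDC45, POLD1, LIG1, RFC4, CCNA2, CDC25A, KIF11, KIF23 and FOXM1. Leaving out feeder-free replicate 2, where several mitosis genes were low, gave 20 of the 50 higher and 6 lower. In that fit 48.0% of all genes tested passed, and 3 mitosis genes were higher in place of 1. TOP2A (adjusted p = 0.0341 by limma) and ESPL1 (adjusted p = 0.0183) joined CDC25A.

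Other genes of these pathways were taken from lists that leave out the 50. Of 47 other replication genes 20 were higher in naive-like cells, 5 were lower and 22 did not pass, with a median change of 0.14. So 53.2% passed, against a background of 50.7% of all genes tested (28.6% higher, 22.1% lower). The largest rises among those that passed with a mean of at least 5 TPM were in GINS4 (0.67), RIF1, which sets replication timing (0.64), and RECQL4, a helicase of initiation (0.55). With the same limit of 5 TPM, the largest falls were in the origin recognition subunit ORC5 (-0.74 ± 0.10, SE, adjusted p = 0.000351), the primase PRIM1 (-0.35) and RPA1, which coats unwound DNA (-0.25). Below that limit, and named after its values were seen, POLD4, a small subunit of polymerase delta, fell furthest in the list. It stood at 2.60 and 2.28 TPM on MEFs and 1.95 and 1.90 TPM feeder-free, against 5.86 and 5.66 TPM in line B and 7.18 and 7.55 TPM in line A, without overlap (-1.25 ± 0.12, SE, adjusted p = 3.76e-05 by limma), and was the 1 gene of the 47 that passed at 2-fold or more.

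Of 71 other mitosis genes, 11 were higher in naive-like cells, 24 were lower and 36 did not pass, with a median change of -0.10. So 49.3% passed, against a background of 50.7% of all genes tested (28.6% higher, 22.1% lower). CEP55, which acts in the last step of cytokinesis, fell furthest (-1.01 ± 0.13, SE, adjusted p = 0.000180 by limma), followed by the mitotic kinase PBK (-0.93 ± 0.075, SE, adjusted p = 1.19e-05) and securin, PTTG1, the inhibitor of separase (-0.81 ± 0.066, SE, adjusted p = 1.21e-05). The largest rises were in PKMYT1, the kinase that holds CDK1 inactive (0.66 ± 0.11, SE, adjusted p = 0.00108), and in the condensin II subunits NCAPH2 (0.62) and NCAPG2 (0.52). Of 17 E2F, RB and MuvB factors 5 were higher, 3 were lower and 9 did not pass, so 47.1% passed, against the same background. MYBL2, an activator of cell cycle genes, was higher by 0.54 ± 0.050 (SE, adjusted p = 2.86e-05), as were the repressors E2F7 (0.68) and E2F4 (0.58). E2F8, the close relative of E2F7, was lower by a change of -1.37 ± 0.13 (SE, adjusted p = 2.68e-05), and TFDP2 (-0.46) and E2F5 (-0.27) were lower too. E2F8 averaged 3.38 ± 0.729 TPM in naive-like cells and 10.2 ± 0.741 TPM in primed cells (SD, n = 4 each), the states did not overlap, and E2F7 averaged 18.7 ± 1.19 TPM in naive-like cells and 11.3 ± 1.31 TPM in primed cells.

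Since primed cells had no feeder layer, feeder-free naive-like cells were also set against them. The pattern was close to that of all naive-like cells, with which this comparison shares libraries. Of the 50 genes 19 were higher and 10 were lower, so 58% passed, against a background of 56.4% of all genes tested (30.8% higher, 25.6% lower). The libraries of these groups did not overlap in 29 of the 50 genes, 19 higher and 10 lower, against backgrounds of 59.8% in either direction and 32.9% higher, and 0 of the 50 passed at 2-fold or more (background 12.1%). The replication genes again had 17 higher and 1 lower, and the mitosis genes 1 higher and 7 lower, with median changes of 0.22 for replication and -0.081 for mitosis. In all 78.3% of the replication genes and 34.8% of the mitosis genes passed. FOXM1 changed by -0.77 ± 0.081 (SE, adjusted p = 0.000113 by limma), CDK1 by -0.60 ± 0.090 (SE, adjusted p = 0.000740) and CCNB2 by -0.56 ± 0.063 (SE, adjusted p = 0.000164). Of the genes that had not passed for all naive-like cells, BUB1B (-0.29 ± 0.050, SE, adjusted p = 0.00172), NDC80 (-0.33 ± 0.070, SE, adjusted p = 0.00468) and MKI67 (-0.20 ± 0.073, SE, adjusted p = 0.0445) were lower here. The earlier comparison was fitted with 2 groups and this one with 4. With a fit of 4 groups, all naive-like cells against primed cells gave 19 higher and 10 lower. BUB1B and NDC80 were then lower there too, and MKI67 still did not pass.

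FOXM1, CDK1, CCNB2, BUB1B and NDC80 kept their calls in all 17 alternatives, and MKI67 in 8 of the 17. The counts over the 50 moved with scaling and with single libraries. Over all genes tested, 4550 were higher and 3781 lower in the main fit. Quantile normalization gave 4401 and 4000 there, and median-ratio scaling 4106 and 4299. With quantile normalization 14 of the 50 were higher and 15 lower, 12 of them mitosis genes. With median-ratio scaling 16 of the 50 were higher and 13 lower. Without feeder-free replicate 1 the counts were 15 higher and 14 lower, and without feeder-free replicate 2 they were 15 higher and 8 lower. Calls of MKI67, MCM2 and MCM10 were each lost in 6 of the 8 fits that left out 1 library, for MKI67 in all but those without feeder-free replicate 1 or line B replicate 2. MCM3 was lost in 4 of these fits and KIF23 in 2, POLD1 and LIG1 without feeder-free replicate 2, and POLE without feeder-free replicate 1. Of 47 other replication genes 16 were higher and 8 lower (51.1% passed), of 71 other mitosis genes 11 were higher and 31 lower (59.2%), and of 17 E2F, RB and MuvB factors 5 were higher and 3 lower (47.1%), against the same background of 56.4%. Of 16 fibroblast markers tested, 1 was higher and 10 were lower in feeder-free naive-like cells, with a summed level of 317 and 302 TPM, against 497 and 452 TPM in line B and 509 and 445 TPM in line A. Their part in these changes was not tested.

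The next comparison asked whether growth on MEFs went with a change in these genes within naive-like cells. Only BUB1B, a kinase-like protein of the spindle checkpoint, passed: 1 gene was higher and 0 were lower, so 2% of the 50 passed, against a background of 5.16% of all genes tested (2.89% higher, 2.27% lower). In limma, 10 of the 50 had an unadjusted p under 0.05, against 3073 of the 14779 genes tested. There was no overlap between the MEF and feeder-free libraries in 25 genes, 20 of them higher, against backgrounds of 52.6% in either direction and 28.7% higher, and 0 of the 50 passed at 2-fold or more (background 1.04%). BUB1B stood at 104 and 101 TPM on MEFs, against 88.4 and 81.5 TPM feeder-free. The change was 0.27 ± 0.058 (SE, adjusted p = 0.0382), and it did not pass without either MEF library or without feeder-free replicate 2 (adjusted p = 0.142 to 0.216). The call was also lost without a filter, without a variance trend and with the 2 groups fitted alone, and in 7 of the 13 alternatives in all.

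FOXM1 stood at 13.4 and 14.6 TPM on MEFs, against 10.5 and 10.6 TPM feeder-free, a change of 0.38 ± 0.094 (SE) that did not pass (adjusted p = 0.0585 by limma). It was the largest change of the 50 in this comparison, and it passed with median-ratio scaling and with a filter at a mean of 5 TPM, where its lowest adjusted p was 0.0477. CDC25A stood at 28.5 and 28.6 TPM on MEFs, against 33.7 and 33.1 TPM feeder-free (-0.22 ± 0.065, SE, adjusted p = 0.0996). Of the 50 changes 40 were positive, all 12 segregation genes among them, against 8016 of the 14779 genes tested. The median was 0.069 for the 50, against 0.020 for all genes tested. The median of the mitosis genes was 0.097, but it moved both ways with single libraries. It was 0.035 without feeder-free replicate 2 and 0.19 without feeder-free replicate 1. Of the other genes, CENPW, a centromere protein, was the 1 that passed among 71 mitosis genes (0.28 ± 0.055, SE, adjusted p = 0.0298 by limma). That was 1.41% of the 71, against a background of 5.16% of all genes tested. In limma, 0 of 47 other replication genes and 0 of 17 E2F, RB and MuvB factors passed. Each of those lists held 3 genes at an unadjusted p under 0.05.

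Fibroblast markers were read beside these values. Of 20 fibroblast markers, 16 passed the filter, of which 7 were higher and 2 were lower on MEFs, and 0 were higher and 5 lower in the 4 naive-like against the 4 primed libraries. Their summed level was 489.9 and 490.5 TPM on MEFs, against 317 and 302 TPM feeder-free, and it was 497 and 452 TPM in line B and 509 and 445 TPM in line A, which had no feeders. COL1A2 stood at 39.0 and 37.0 TPM on MEFs, against 0.0468 and 0.219 TPM feeder-free. PRRX1 stood at 6.84 and 8.54 TPM on MEFs, against 0 and 0.0267 TPM feeder-free. It was no higher than 0.255 TPM in any primed library. So PRRX1 passed the filter only through the MEF libraries, where it was high. The 2 that were lower on MEFs were LUM (-0.59 ± 0.11, SE, adjusted p = 0.0209 by limma) and COL5A1 (-0.41 ± 0.087, SE, adjusted p = 0.0382). The feeders were mouse cells and the values are for sheep genes, so how much feeder RNA these values hold is not known. The part of feeder cells in the values of the 50 genes was not tested.

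**Figure D5:**
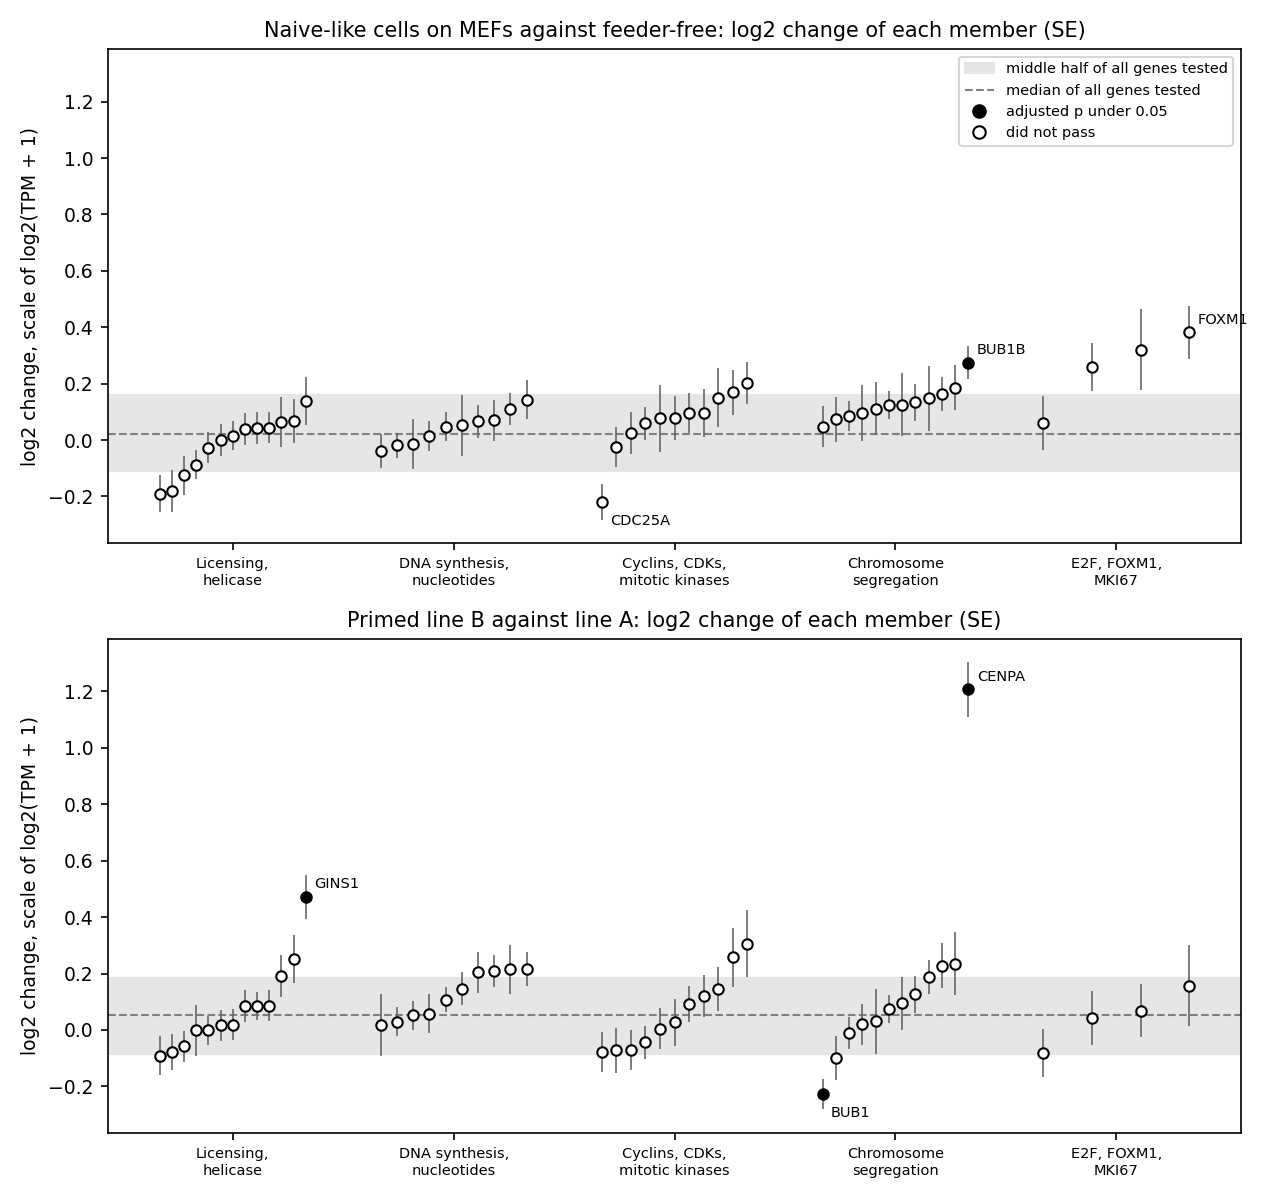
Log2 change of each of the 50 genes with 1 SE from limma, for naive-like cells on MEFs minus feeder-free and for primed line B minus line A. Most changes on MEFs are small and positive, with BUB1B the only gene that passed, and between the lines CENPA stands far from the rest at 1.21.

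The last comparison set primed line B against primed line A, which were grown alike. Of the 50 genes 2 were higher in line B and 1 was lower, so 6% passed, against a background of 7.36% of all genes tested (4.18% higher, 3.17% lower). An unadjusted p under 0.05 in limma was reached by 15 of the 50, against 3589 of the 14779 genes tested. The libraries of the lines did not overlap in 29 genes, against a background of 54.8%, and 1 gene passed at 2-fold or more (background 1.72%). CENPA stood at 133 and 152 TPM in line B, against 58.1 and 63.8 TPM in line A. The change was 1.21 ± 0.10 (SE, adjusted p = 0.000323 by limma), the only one of the 50 that passed at 2-fold or more in any of the 4 comparisons, and it passed in all 13 alternatives. Its naive-like libraries, at 112 and 100.0 TPM on MEFs and 106 and 92.4 TPM feeder-free, lay between the lines, so the order of levels was line B, naive-like, line A, and the MEF and feeder-free libraries overlapped. Against line A alone, CENPA was higher in naive-like cells (0.74, adjusted p = 0.000663 by limma), and against line B alone it was lower (-0.47, adjusted p = 0.00550).

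GINS1 was also higher in line B than in line A, at 88.4 and 82.8 TPM in line B, against 57.8 and 65.2 TPM in line A (0.47 ± 0.077, SE, adjusted p = 0.0112 by limma), though both lines were below every naive-like library. The call was lost without line B replicate 1 or line A replicate 1 (adjusted p = 0.0756 and 0.0761). BUB1, a kinase of the spindle checkpoint, stood at 73.1 and 71.0 TPM in line B, against 85.5 and 83.3 TPM in line A (-0.23 ± 0.053, SE, adjusted p = 0.0404), and this call was lost without any one of the 4 primed libraries (adjusted p = 0.108 to 0.178). Over all genes tested 618 were higher and 469 lower in line B, but 407 were higher and 618 lower with median-ratio scaling and 477 were higher and 615 lower with quantile normalization. The counts of the 50 were 2 higher and 1 lower under both.

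Of 47 other replication genes 2 were higher in line B and 0 lower, so 4.26% passed, against a background of 7.36% of all genes tested. TYMS, the enzyme that makes thymidylate, stood at 223 and 226 TPM in line B, against 121 and 123 TPM in line A (0.87 ± 0.045, SE, adjusted p = 2.55e-05 by limma), with 142 and 141 TPM on MEFs and 143 and 144 TPM feeder-free in naive-like cells between them. POLE4, a small subunit of polymerase epsilon, was higher by 0.33 ± 0.066 (SE, adjusted p = 0.0236). Of 71 other mitosis genes 5 were higher and 0 lower, so 7.04% passed, near the same background of 7.36%. The largest changes were in CENPK, a kinetochore subunit (0.56 ± 0.10, SE, adjusted p = 0.0155 by limma), CDCA2 (0.44) and NUF2, the partner of NDC80 (0.30). Of 17 E2F, RB and MuvB factors 0 passed in limma, with 4 at an unadjusted p under 0.05.

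The median standard deviation between the libraries of a group was 0.0740 on the log2 scale for the 50 and 0.109 for all genes tested. It was 0.0911 for the 9439 genes in the same range of TPM as the 50. The median size of the change with state was 0.18 for the 50, against 0.30 for all genes tested and 0.26 for those in that range. For state, 0 of the 50 passed at 2-fold or more, where 10.8% of all genes tested did.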

How the data were processed

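Expression was measured by RNA-seq of polyadenylated RNA in 8 libraries, 2 in each of 4 groups taken from the labels. The authors deposited TPM for 28475 genes. Per the submitters' processing notes, Salmon was used, and its version and the genome build are not given in the sources used here. TPM carry no read counts, so depth and counting error are unknown and no count model was used.

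The analysis scale was log2(TPM + 1). A gene entered the fit if 2 or more libraries reached 1 TPM (14779 genes). Linear models were made with limma 3.58.1 (R 4.3.3), whose moderated variance was allowed to vary with expression level, and the p-values, all two-sided, were adjusted over every gene in the fit (Benjamini-Hochberg, threshold 0.05). State compared the 4 naive-like and the 4 primed libraries in a model of 2 groups. Feeder-free against primed cells, MEFs and lines were contrasts of a model of 4 groups. Changes carry standard errors and TPM carry standard deviations. The fitting steps were tested on simulated data. All 50 genes are reported by role, and of the other genes the 3 largest rises and 3 largest falls per list that passed with a mean of at least 5 TPM. The 50 genes, their roles and the other lists were chosen with earlier results of these data known. Alternatives changed the pseudocount, filter, scaling, variance trend, block and libraries.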

Additional observations from a re-analysis of the deposited data

Results flagged for a closer look

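In 7 of 100 groups of 4 libraries (50 genes in 2 states), 1 library stood far from the other 3, where chance alone gives about 1 in 20. Of these, 4 were low values of feeder-free replicate 2 among the naive-like libraries, all in the mitosis set, which also holds the CDKs. They were CCNB1 at 127 TPM, CDK2 at 32.6 TPM, CENPE at 29.7 TPM and ESPL1 at 29.2 TPM. PCNA was low in MEF replicate 1 at 601 TPM. Among the primed libraries, line A replicate 1 was high for PLK1, at 132 TPM, and for KIF23, at 55.1 TPM.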

How the results depend on the processing

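Of 1050 changes with state recomputed under alternatives for the 50 genes, 936 kept direction and side of the threshold, 50 lost the call, 14 gained it, 49 moved without a call and 1 reversed, which was CENPA against line B alone (-0.47). With feeder-free cells against primed cells 766 of 850 were kept, for MEFs 613 of 650 and for the lines 597 of 650. With the means of the 4 groups, 4023 genes passed for state, 9 of the 50 higher and 3 lower, and 5 were lower against line A alone. For MEFs, 345 genes passed without a filter, 235 with the groups compared alone and 191 to 610 with a replicate left out. Of the 50, the number higher was then 0 without a filter, without a variance trend, with a replicate block or with the groups alone, 2 with median-ratio scaling or a filter at a mean of 5 TPM, and 0 to 1 with a replicate left out, and 1 was lower without a filter. For the lines, 624 genes passed without a filter, 420 with the groups alone and 353 to 480 with a replicate left out. Of the 50, 1 was higher without a filter or with the groups alone and 1 to 2 with a replicate left out, and 0 were lower without a variance trend, with the groups alone or with any replicate left out. Fits with a replicate left out hold fewer libraries, and the fit without a filter holds more genes. The cause of these differences was not tested. Deviations of same-numbered libraries correlated at -0.075 to 0.097 between groups, which does not show whether replicates were prepared in pairs. A replicate block gave 7237 genes for state, with 19 of the 50 higher and 7 lower. For feeder-free cells it gave 8407 genes with 19 and 10. It gave 697 genes with 0 and 0 for MEFs, and 1050 genes with 2 and 1 for the lines. Each group holds 2 libraries, so fits with 1 left out assume that the lone library varies like the others. Without read counts, low genes such as E2F2 and CDC25C carry a counting error that cannot be given.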

Other observations

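The subunits of the MCM ring held unequal shares of its summed TPM. MCM7 made up 29.6% to 30.8% in naive-like libraries and 30.4% to 32.1% in primed libraries. MCM3, the least abundant of the 6, made up 9.30% to 9.72% in naive-like libraries and 9.81% to 10.4% in primed libraries. MCM2 made up 14.6% to 15.3% in naive-like libraries and 15.7% to 16.3% in primed libraries. The states were apart for MCM2 and MCM3, and apart in the other direction for MCM4, at 12.7% to 13.9% in naive-like libraries and 11.8% to 12.2% in primed libraries, while for MCM5, MCM6 and MCM7 they overlapped.

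A few mitosis genes outside the 50 are given here, chosen after their values were seen. NUF2, which pairs with NDC80, stood at 59.0 and 62.0 TPM on MEFs and 62.0 and 57.6 TPM feeder-free, against 116 and 107 TPM in line B and 86.8 and 93.4 TPM in line A (-0.73 ± 0.088, SE, adjusted p = 0.000145 by limma). SPC24 and SPC25, of the same complex, had changes of -0.032 ± 0.057 (SE, adjusted p = 0.670) and 0.24 ± 0.11 (SE, adjusted p = 0.107) and did not pass. CKS1B, which binds CDKs, was lower by a change of -0.57 ± 0.060 (SE, adjusted p = 5.76e-05), while its relative CKS2 had a change of 0.037 ± 0.058 (SE, adjusted p = 0.623).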
